A study of Mus musculus with 2 samples.

Results

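The transcripts of glycolysis isoenzymes and of the hypoxia response were followed in the embryonic facial prominence of the mouse, the tissue that forms the jaws, palate and face. The 31 genes were taken from a list of symbols and matched by Ensembl identifier in both deposited gene tables, which hold 43346 Ensembl genes. They comprise 2 glucose transporters, 19 enzymes from hexokinase to lactate dehydrogenase, 2 lactate transporters, 3 targets of the hypoxia-inducible factor, 2 of its alpha subunits, and 3 genes that sense oxygen and control its destruction. The rule that lists them uses no measured value, but the list was chosen with earlier results of these data known.

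Total RNA was sequenced in 2 libraries that form 1 group: embryonic day 14.5, strain B6NCrl, no treatment named, with 10.0 ng of RNA as starting material. They are biological replicate 1 and biological replicate 2. The labels describe each as the cranioface of a single pup with its own collection day, yet give the sex as pooled, so whether the spread between them is that of single embryos cannot be told. With 2 samples an exact two-sided permutation test cannot give a p below 0.5, so no test was made and each value is given per library.

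Glycolysis turns glucose into pyruvate in a chain of cytosolic enzymes, and most steps can be carried out by isoenzymes from separate genes with their own tissue preference, such as muscle, brain or liver forms. Lactate dehydrogenase then reduces pyruvate to lactate, which leaves the cell through monocarboxylate transporters. The hypoxia-inducible factor raises transcription of many of these genes when oxygen is low; in normal oxygen its alpha subunit is hydroxylated by the Egln prolyl hydroxylases and marked for destruction by the Vhl protein. Embryonic tissues are known for a high rate of glycolysis.

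The files hold 30919488 expected counts for replicate 1 and 37738872 for replicate 2, of which spike-in RNAs and other added sequences took 3.22% in replicate 1 and 5.43% in replicate 2. A transcript of 2000 bases with 3 counts, the limit of detection used here, would have 0.0761 TPM in replicate 1 and 0.0589 in replicate 2. TPM is the share of a library's transcripts after division by length, and allows genes to be compared within a library. All 7 facial mesenchyme markers examined, among them Prrx1, Osr2 and Msx1, were at 1 TPM or more in both libraries, with sums of 304 TPM in replicate 1 and 269 in replicate 2. Skeletal muscle, cartilage, bone, nerve, epithelial, red cell, endothelial and macrophage markers were also at 1 TPM or more in both. That level was reached by 63.9% of protein-coding genes, so reaching it does not by itself show a cell type. The skeletal muscle markers summed to 6340 TPM in replicate 1 and 8401 in replicate 2, so the tissue is mixed. In bulk RNA, fewer cells of a type and less RNA per cell cannot be told apart.

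Of the 31 genes 30 were at 1 TPM or more in both libraries, against 63.9% of protein-coding genes (13717 of 21474). The exception, by listed TPM, was Car9, a carbonic anhydrase and a classic hypoxia marker. The median level of the 31 genes was 73.1 TPM, against 17.3 TPM for all protein-coding genes at 1 TPM in both libraries, and 25 of the 31 stood above that value. The 19 enzymes together held 8062 TPM in replicate 1 and 7375 in replicate 2, or 0.806% of all TPM in replicate 1 and 0.738% in replicate 2. All TPM includes the spike-in RNAs. Over annotated genes alone the shares were 0.869% in replicate 1 and 0.835% in replicate 2. In the order of level, 13 of the 30 neighbouring pairs were separated beyond the ranges of the libraries. The other neighbours overlapped.

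**Figure D1:**
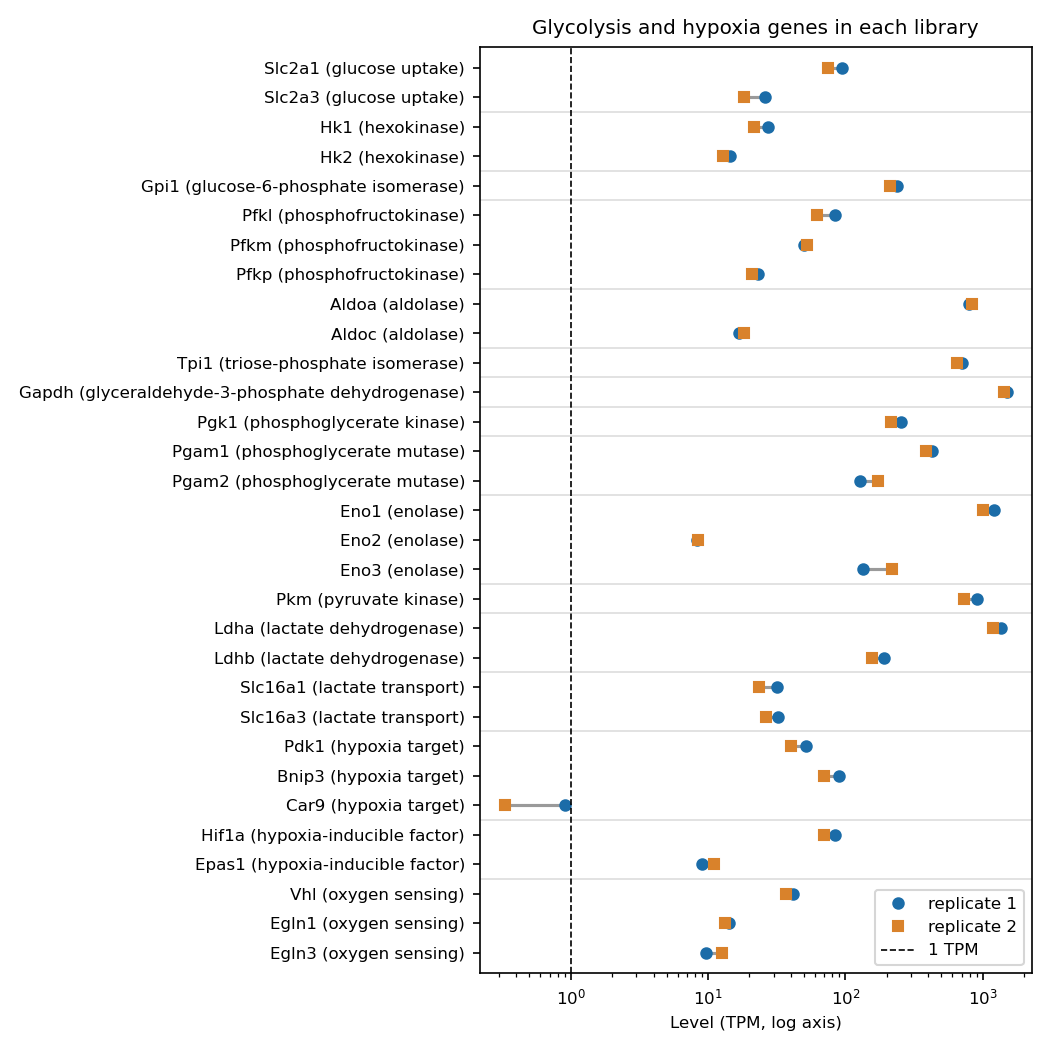
Level of each gene in TPM (log axis) in replicate 1 (circles) and replicate 2 (squares), grouped by step from glucose uptake to oxygen sensing, with a grey line between the libraries. Genes run from Car9, at 0.90 TPM in replicate 1 and 0.33 in replicate 2, to Gapdh, at 1497 TPM in replicate 1 and 1419 in replicate 2. The gap between the libraries is wide for Car9 and for Eno3, at 133 TPM in replicate 1 and 219 in replicate 2.

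The sequence that distinguishes the pyruvate kinase forms is shown first, because it is what tells the forms apart. Pkm, which makes pyruvate and ATP in the last step of glycolysis, carries a pair of mutually exclusive exons of 167 bases. The M1 form is known from adult muscle and brain, and the M2 form from embryonic and proliferating cells. The exons lie at chr9:59675029-59675195 (M1, in transcript Pkm-202) and chr9:59675568-59675734 (M2, in transcript Pkm-201) on the plus strand of GRCm38, both within coding sequence, and are read here from the GENCODE M21 transcripts. Capitals mark the 64 positions at which the exons differ.
Pkm M1 exon: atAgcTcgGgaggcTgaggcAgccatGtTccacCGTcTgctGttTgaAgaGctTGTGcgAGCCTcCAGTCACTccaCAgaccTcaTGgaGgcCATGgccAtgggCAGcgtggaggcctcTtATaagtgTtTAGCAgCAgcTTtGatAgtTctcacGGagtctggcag
Pkm M2 exon: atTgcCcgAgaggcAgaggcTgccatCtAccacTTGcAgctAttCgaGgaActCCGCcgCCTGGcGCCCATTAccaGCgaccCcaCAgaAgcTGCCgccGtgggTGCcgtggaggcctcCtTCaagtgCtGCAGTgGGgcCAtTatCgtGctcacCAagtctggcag
The exons are 61.7% identical, and 43 of the differences fall in the first 100 bases. Both transcripts are 2432 bases long, so their shares are the same by counts and by TPM.

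Pkm M2 was the leading form in both libraries. M2 took 86.8% of the TPM of Pkm in replicate 1 and 81.0% in replicate 2 (83.9% ± 4.1, SD, n = 2). M1 took the remaining 13.2% in replicate 1 and 19.0% in replicate 2. The forms share all but 167 of their 2432 bases, so most reads were divided between them by the authors' estimate and not seen on either exon. In TPM, M2 stood at 788 in replicate 1 and 594 in replicate 2, and M1 at 120 in replicate 1 and 139 in replicate 2. The authors' deposited credibility bounds of M1, which cover the estimate within a library, ran from 109 to 125 TPM in replicate 1 and from 128 to 144 in replicate 2 and do not overlap. The listed TPM of M2 lies above its own upper bound in both libraries (775 in replicate 1 and 591 in replicate 2). This is not particular to M2. In both libraries gene TPM also lies above the upper bound for Ldha, Eno1, Aldoa and Gapdh, and below the lower bound for Eno2 and Car9. M2 was thus higher and M1 lower in replicate 1, with log2 ratios of TPM + 1 in replicate 1 over replicate 2 of 0.41 for M2 and -0.22 for M1. M2 exceeded M1 by 6.57-fold in replicate 1 and 4.26-fold in replicate 2.

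Glucose enters cells through facilitative transporters, of which the widespread form Slc2a1 led. Slc2a1 had 93.5 TPM in replicate 1 and 75.1 in replicate 2. Slc2a3, the high-affinity transporter known from neurons and placenta, had 25.8 TPM in replicate 1 and 18.2 in replicate 2. Slc2a1 made up 79.5% ± 1.5 (SD, n = 2) of their sum, and its lower library stood well above the higher library of Slc2a3. Among 14 other genes of glucose and lactate transport 10 reached 1 TPM in both libraries, against 63.9% of protein-coding genes. Slc2a4, the insulin-responsive transporter of muscle and fat, had 13.6 TPM in replicate 1 and 15.7 in replicate 2, while Slc2a2, the transporter of liver and pancreatic beta cells, had 3 counts in replicate 1 and 1 count in replicate 2.

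Hexokinases trap glucose as glucose-6-phosphate, and this was the lowest step of the chain, with 41.8 TPM in replicate 1 and 34.5 in replicate 2 over both genes. Hk1, the widespread form, had 27.4 TPM in replicate 1 and 21.7 in replicate 2, against 14.4 TPM in replicate 1 and 12.8 in replicate 2 for Hk2, a form known from muscle and tumours. By gene TPM Hk1 made up 64.2% ± 1.8 of the sum (SD, n = 2). For Hk2, however, 68.0% of the gene's TPM in replicate 1 and 62.7% in replicate 2 were assigned to Hk2-202, a transcript of 594 bases annotated as non-coding. Its only coding transcript above 0, Hk2-201, had 4.62 TPM in replicate 1 and 4.77 in replicate 2. Over coding transcripts alone Hk1 made up 83.7% ± 2.5, so the lead of Hk1 held and its size depended on the transcripts counted. Of 12 further isoenzyme genes and relatives only Adpgk, Bpgm and Hk3 reached 1 TPM in both libraries, against 63.9% of protein-coding genes. Adpgk, the ADP-dependent glucokinase, had 39.5 TPM in replicate 1 and 37.1 in replicate 2. Bpgm, the bisphosphoglycerate mutase, had 36.1 TPM in replicate 1 and 35.5 in replicate 2. Hk3 had 1.73 TPM in replicate 1 and 1.39 in replicate 2. Pklr, the pyruvate kinase of liver and red blood cells, was near the limit of detection, with 7.10 counts in replicate 1 and 2.14 in replicate 2. Pgk2, the testis form of phosphoglycerate kinase, had 0 counts in both.

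Gpi1, which converts glucose-6-phosphate to fructose-6-phosphate, had 239 TPM in replicate 1 and 211 in replicate 2. Phosphofructokinase, the committed step, was shared among 3 isoenzymes. Pfkl, the liver form, had 84.2 TPM in replicate 1 and 62.0 in replicate 2. Pfkm, the muscle form, had 49.9 TPM in replicate 1 and 52.1 in replicate 2, and Pfkp, the platelet form, had 22.9 TPM in replicate 1 and 20.99 in replicate 2. Their shares were 49.8% ± 5.5, 35.2% ± 4.8 and 15.1% ± 0.66 (SD, n = 2), in the same order in both libraries and with no overlap of ranges. Pfkl exceeded Pfkm by 1.69-fold in replicate 1 and by 1.19-fold in replicate 2, so the size of its lead differed between the libraries. Of the Pfkp TPM, 67.1% in replicate 1 and 77.6% in replicate 2 lay on coding transcripts. Regulators of this step were low: Pfkfb3, a source of its activator fructose-2,6-bisphosphate, had 7.90 TPM in replicate 1 and 6.93 in replicate 2. Of 12 flux regulators 9 reached 1 TPM in both libraries, against 63.9% of protein-coding genes. The highest were the phosphatase subunits G6pc3 and Ppp1r3c and the mitochondrial gluconeogenic enzyme Pck2, between 14.1 and 22.6 TPM over both libraries, and the lowest was Pck1, its cytosolic form, with 3 counts in replicate 1 and 6 in replicate 2.

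Aldolase cleaves fructose-1,6-bisphosphate, and nearly all of its RNA came from Aldoa, the widespread and muscle form. Aldoa had 793 TPM in replicate 1 and 827 in replicate 2, while Aldoc, the brain form, had 16.8 TPM in replicate 1 and 18.4 in replicate 2. Aldoa made up 97.9% ± 0.075 of the sum (SD, n = 2). Its transcripts begin at several first exons on the minus strand of chromosome 7, grouped here by overlap of their first exons and numbered from the most upstream. The fourth class (Aldoa-201, Aldoa-202 and Aldoa-209; chr7:126799045-126799254) took 82.1% of the TPM in replicate 1 and 83.2% in replicate 2. The second class (Aldoa-203; chr7:126800288-126800447) took 12.0% in replicate 1 and 9.80% in replicate 2, and the third class (Aldoa-204 and Aldoa-210; chr7:126800002-126800046) took 4.16% in replicate 1 and 4.94% in replicate 2. The leading class therefore differed little between the libraries. By listed TPM the second class was higher in replicate 1, with a log2 ratio of 0.23, and the third was lower there, with -0.30. The deposited credibility bounds overlap between the libraries for both. For Aldoa-203 they ran from 70.5 to 114 TPM in replicate 1 and from 61.4 to 101 in replicate 2. For Aldoa-210 they ran from 24.3 to 41.8 TPM in replicate 1 and from 32.6 to 47.4 in replicate 2. Tpi1, which interconverts the triose phosphates, had 704 TPM in replicate 1 and 652 in replicate 2.

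**Figure D2:**
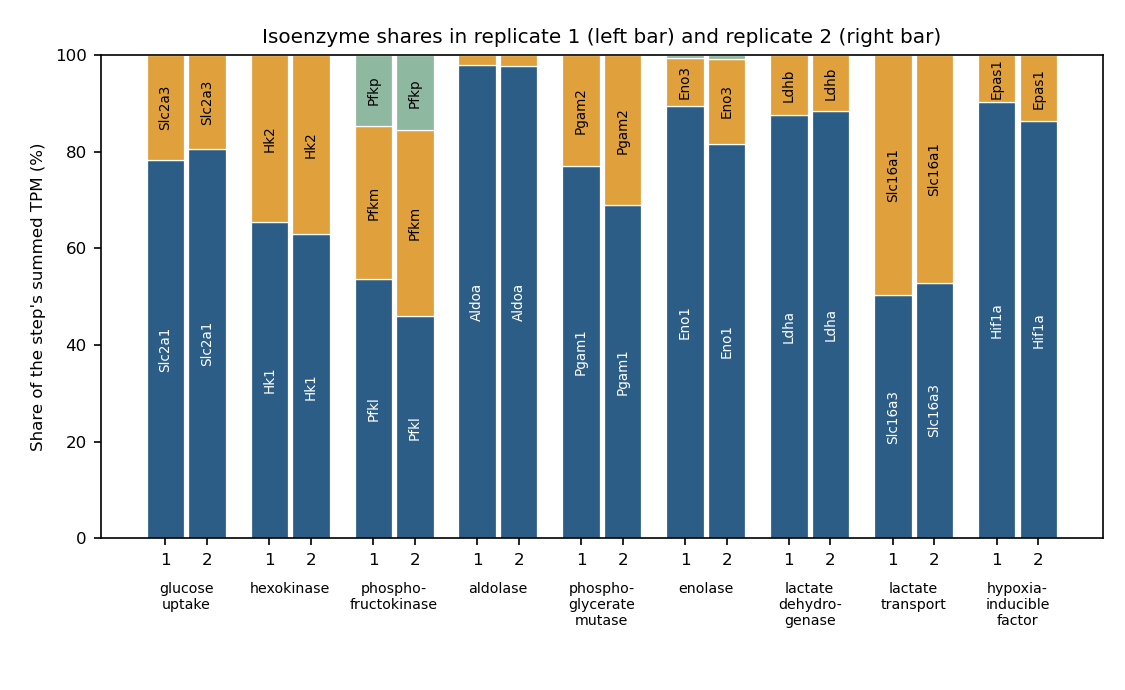
Share of each step's summed TPM taken by each isoenzyme, in percent, in replicate 1 (left bar) and replicate 2 (right bar). Aldoa, Ldha, Hif1a and Eno1 took over 80% in both libraries; Slc16a1 and Slc16a3 split their step about evenly; the unlabelled slivers are Aldoc and Eno2.

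The later steps of the pathway, from Gapdh to lactate dehydrogenase, were measured at higher levels than hexokinase and phosphofructokinase. Gapdh, which oxidises glyceraldehyde-3-phosphate and yields NADH, had the highest gene TPM of the 31 genes, 1497 in replicate 1 and 1419 in replicate 2. Most of that, 54.8% in replicate 1 and 56.3% in replicate 2, was assigned to Gapdh-208, a transcript of 483 bases annotated as non-coding. The coding transcripts of Gapdh held 663 TPM in replicate 1 and 609 in replicate 2, which puts Gapdh at place 6 of 31 by coding TPM, behind Ldha, Eno1, Pkm, Aldoa and Tpi1. Gapdh also has 165 near-copies at 90% identity or more, which held 2412 counts in replicate 1 and 2633 in replicate 2, or 9.31% in replicate 1 and 8.51% in replicate 2 of the counts of gene and copies together. Reads of such copies cannot be told apart with certainty from those of the gene.

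Pgk1, which makes the first ATP of the payoff phase, had 253 TPM in replicate 1 and 214 in replicate 2. Its processed copy Pgk1-rs7, 96.9% identical, held 1343 counts in replicate 1 and 1316 in replicate 2, so the copies' part of the combined counts was 13.5% in replicate 1 and 12.3% in replicate 2. Phosphoglycerate mutase moves the phosphate group along the sugar acid. Pgam1, the brain or widespread form, had 428 TPM in replicate 1 and 384 in replicate 2, and Pgam2, the muscle form, had 127 TPM in replicate 1 and 173 in replicate 2. Pgam1 made up 77.2% of the step in replicate 1 and 68.9% in replicate 2 (73.0% ± 5.8, SD, n = 2). The summed level of the step was nearly the same in the libraries, 555 TPM in replicate 1 and 557 in replicate 2, while its makeup differed. Pgam1-ps2, a pseudogene identical to Pgam1 over 765 bases, held 895 counts in replicate 1 and 894 in replicate 2.

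Enolase, which makes phosphoenolpyruvate, was led by Eno1, the widespread form, with 1205 TPM in replicate 1 and 1007 in replicate 2. Eno3, the muscle form, had 133 TPM in replicate 1 and 219 in replicate 2, and Eno2, the neuronal form, had 8.23 TPM in replicate 1 and 8.48 in replicate 2. Eno1 made up 89.5% of the step in replicate 1 and 81.6% in replicate 2, and Eno3 made up 9.91% in replicate 1 and 17.7% in replicate 2. Among the 30 genes with a mean of 5 TPM or more, Eno3 had the ratio between the libraries farthest from 0. Of the Eno2 TPM, 44.5% in replicate 1 and 71.5% in replicate 2 were on coding transcripts, which leaves 3.66 coding TPM in replicate 1 and 6.06 in replicate 2. Eno2 lies at chr6:124760053-124769673 and Tpi1 at chr6:124810586-124814296 in GRCm38, close together on the minus strand, yet the mean level was 8.36 TPM for Eno2 and 678 TPM for Tpi1. These 2 genes, Gapdh, Ldhb, Hk2, Slc2a3 and Vhl all lie on chromosome 6, which holds 22.6% of the 31 genes and 5.03% of protein-coding genes.

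Lactate dehydrogenase was led by Ldha, the form known to favour lactate production and a hypoxia target. Ldha had 1359 TPM in replicate 1 and 1184 in replicate 2, and Ldhb, the heart form, had 192 TPM in replicate 1 and 156 in replicate 2. Ldha made up 88.0% ± 0.53 of the sum (SD, n = 2) and exceeded Ldhb by 7.07-fold in replicate 1 and by 7.60-fold in replicate 2. By coding transcripts Ldha was the highest of the 31 genes, with 1268 ± 123 TPM (SD, n = 2). Ldha lies at chr7:46841475-46855627 on the plus strand.

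Monocarboxylate transporters carry the lactate out of the cell. Slc16a1, the widespread form, had 31.7 TPM in replicate 1 and 23.5 in replicate 2, and Slc16a3, the form known from glycolytic muscle and hypoxic cells, had 32.0 TPM in replicate 1 and 26.4 in replicate 2. Their ranges overlap, and Slc16a3 made up 51.6% ± 1.9 of the sum (SD, n = 2), so no leader could be named. Bsg, the chaperone that brings both transporters to the membrane, was far higher, with 685 TPM in replicate 1 and 643 in replicate 2, and the alternative chaperone Emb had 33.9 TPM in replicate 1 and 29.4 in replicate 2.

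**Figure D3:**
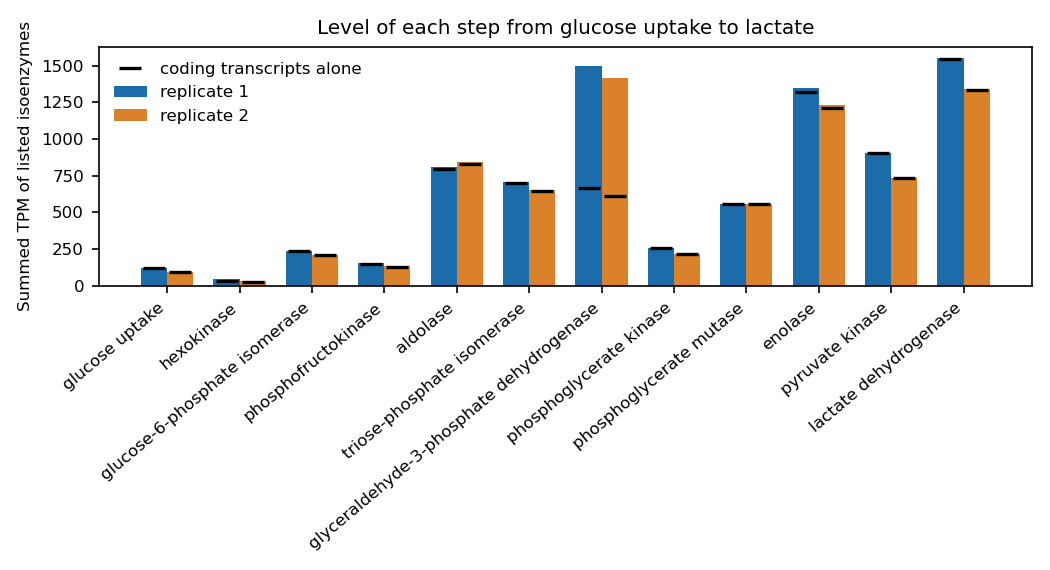
Summed TPM of the listed isoenzymes at each step from glucose uptake to lactate dehydrogenase, in replicate 1 (left bar) and replicate 2 (right bar), with a black mark at the sum over coding transcripts alone. Hexokinase was the lowest step, at 41.8 TPM in replicate 1 and 34.5 in replicate 2, and the mark for Gapdh, at 663 TPM in replicate 1 and 609 in replicate 2, lies far under its bar.

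Pyruvate can instead enter mitochondria. Pdk1, a kinase that inhibits pyruvate dehydrogenase and a known hypoxia target, had 51.5 TPM in replicate 1 and 39.9 in replicate 2. Its only coding transcript held 20.5 TPM of these in replicate 1 and 16.5 in replicate 2. All 13 genes of the pyruvate dehydrogenase complex, its regulators and pyruvate entry were at 1 TPM or more in both libraries. This level was reached by 63.9% of protein-coding genes. Pdhb, a subunit of the complex, had 159.5 TPM in replicate 1 and 159.6 in replicate 2, and the pyruvate carrier subunits Mpc1 and Mpc2 lay between 130 and 159.5 TPM over both libraries. The kinase Pdk4 was the lowest, with 3.22 TPM in replicate 1 and 3.79 in replicate 2.

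Bnip3, which drives removal of mitochondria and is a known hypoxia target, had 89.8 TPM in replicate 1 and 70.3 in replicate 2. Car9 had 0.90 TPM in replicate 1 and 0.33 in replicate 2, from 26.4 expected counts in replicate 1 and 15.0 in replicate 2. The deposited credibility bounds of Car9 ran from 1.10 to 3.15 TPM in replicate 1 and from 0.48 to 1.66 in replicate 2. Its listed TPM lay below them in both libraries, so whether Car9 is under 1 TPM is uncertain. The ratio of its CPM (expected counts scaled to library total) in replicate 1 over replicate 2 was 2.12, with a counting interval of 1.08 to 4.30. An antisense gene, Gm12454, overlaps Car9 and had 27.6 counts in replicate 1 and 23.0 in replicate 2; how the counting used strand is not given in the sources used here, so reads of the pair cannot be told apart. Among 28 other genes known to respond to hypoxia 26 reached 1 TPM in both libraries, against 63.9% of protein-coding genes. The highest were the mitophagy receptor Bnip3l, with 342 TPM in replicate 1 and 292 in replicate 2, Fam162a, with 256 TPM in replicate 1 and 274 in replicate 2, and Anxa1, with 201 TPM in replicate 1 and 262 in replicate 2. Vegfa, the angiogenic factor, was much lower, with 3.42 TPM in replicate 1 and 3.59 in replicate 2. Epo, the red cell hormone, had 3 counts in replicate 1 and 0 in replicate 2.

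Of the alpha subunits, Hif1a led. Hif1a had 83.8 TPM in replicate 1 and 70.0 in replicate 2, and Epas1, known from endothelium, had 9.00 TPM in replicate 1 and 11.1 in replicate 2. Hif1a made up 88.3% ± 2.8 of their sum (SD, n = 2). Hif3a, a further alpha subunit that can restrain the others, had 20.3 TPM in replicate 1 and 25.4 in replicate 2, and so stood above Epas1 in both libraries. Arnt, the shared partner, had 30.6 TPM in replicate 1 and 24.6 in replicate 2, and Arnt2 had 7.30 TPM in replicate 1 and 5.60 in replicate 2. Transcript levels do not give the amount of alpha subunit protein, which also depends on its destruction and was not measured here.

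Of the genes that control that destruction, Vhl, the substrate receptor of the ubiquitin ligase, had 41.5 TPM in replicate 1 and 37.1 in replicate 2. Egln1, the main prolyl hydroxylase in most tissues, had 14.2 TPM in replicate 1 and 13.3 in replicate 2. Egln3, a hydroxylase that is itself induced by hypoxia, had 9.70 TPM in replicate 1 and 12.6 in replicate 2. The ranges of the 3 genes did not overlap. Egln2, outside the list, had 38.1 TPM in replicate 1 and 31.3 in replicate 2, above both listed hydroxylases. The ligase subunits Elob, with 804 TPM in replicate 1 and 761 in replicate 2, Eloc, with 210 TPM in replicate 1 and 202 in replicate 2, and Rbx1, with 194 TPM in replicate 1 and 176 in replicate 2, were all far above Vhl itself. All 12 partners and sensors matched reached 1 TPM in both libraries, against 63.9% of protein-coding genes.

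The hypoxia-inducible factor binds a short core, written here as ACGTG or GCGTG and searched on both strands. The windows shown are the 250 bases before an annotated RefSeq start (GRCm38.p6) of Ldha, Bnip3 and Pgk1, known targets that were well expressed here. Capitals mark the matched letters, and adjoining or overlapping matches run together.
Ldha, chr7:46845554-46845803, plus strand: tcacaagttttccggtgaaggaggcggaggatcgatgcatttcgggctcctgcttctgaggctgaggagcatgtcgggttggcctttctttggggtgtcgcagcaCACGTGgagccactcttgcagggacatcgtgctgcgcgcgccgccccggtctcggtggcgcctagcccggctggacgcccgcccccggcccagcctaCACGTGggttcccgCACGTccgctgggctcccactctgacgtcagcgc
Bnip3, chr7:138909507-138909756, minus strand: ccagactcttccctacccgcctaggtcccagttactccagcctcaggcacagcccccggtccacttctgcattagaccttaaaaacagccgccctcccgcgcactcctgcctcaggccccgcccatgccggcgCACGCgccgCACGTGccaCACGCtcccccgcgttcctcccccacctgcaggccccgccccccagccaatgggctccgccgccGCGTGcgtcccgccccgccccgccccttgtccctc
Pgk1, chrX:106186850-106187099, plus strand: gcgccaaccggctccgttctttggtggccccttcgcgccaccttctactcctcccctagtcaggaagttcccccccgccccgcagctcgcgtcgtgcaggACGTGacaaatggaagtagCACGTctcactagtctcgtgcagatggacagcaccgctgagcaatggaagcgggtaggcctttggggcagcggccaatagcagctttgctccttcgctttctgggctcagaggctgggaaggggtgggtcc
The Ldha window shown holds 3 separate stretches with the core, the Bnip3 window 4 and the Pgk1 window 2. Counted on both strands, the Ldha and Bnip3 windows hold 5 matches each, the most of any member window, so these examples are rich in the core. Of the windows of Pdk1, another known target, 1 held 1 match to GCGTG and the other held 0. Of the 2 windows of Ldha the one with more matches is shown; the other, at chr7:46846832-46847081, holds 1 match to GCGTG and 0 to ACGTG. Where a stretch reads CACGTG, the core lies on both strands at once.

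A window was available for 29 of the 31 genes, all but Slc2a3 and Epas1, with 41 windows in all because several genes have more than 1 start. For 32 of the 41 windows, bases just after the start were found in the opening part of a transcript of the gene. Some windows of the same gene overlap, so a match can be counted more than once. The core was found in 31 of the 41 windows, 75.6%. Among all RefSeq promoter windows of the same length 38.6% held it (12678 of 32841), and among windows of protein-coding genes at 1 TPM in both libraries 54.2% did. By gene, the core was found in 24 of 29 members, or 82.8%. That compares with 41.55% of all genes with a window and 60.5% of expressed protein-coding genes. G and C made up a median of 60.4% of the bases in the members' windows, 52.4% in all windows and 59.6% in those of expressed genes. With ACGTG alone the shares were 41.5% of the members' windows, 16.6% of all windows and 20.8% of those of expressed genes. The windows of Pgam2, Gpi1, Tpi1, Eno2 and Vhl held no match. A match describes the letters in the window and is not a measured binding site.

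None of the 30 genes with a mean of 5 TPM or more differed by 2-fold or more between the libraries on the log2(TPM + 1) scale, against 0.714% of all genes tested (82 of 11482; 0.244% higher and 0.47% lower in replicate 1). The log2 ratios of replicate 1 over replicate 2 ran from -0.71 for Eno3 to 0.48 for Slc2a3, with a median of 0.17. The median over all genes tested was 0.15, with 10th and 90th percentiles of -0.09 and 0.35, so TPM ran slightly higher in replicate 1 for most genes. Of the 30 genes 18 stood above the median of all genes.

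Genes with lower TPM in replicate 1 numbered 8 of 30, against 19.1% of all genes tested. They were Eno3, Pgam2, Egln3, Epas1, Aldoc, Pfkm, Aldoa and Eno2, and their ratios stayed below 0 under each of 4 scalings compared. The 4 are not independent: 1 shifts all TPM ratios by a constant, and ratios with edgeR and DESeq2 factors nearly coincide. Over coding transcripts alone, however, Aldoc had 15.2 TPM in replicate 1 and 14.4 in replicate 2. Another 5 (Gapdh, Egln1, Tpi1, Pfkp and Hk2) had higher TPM in replicate 1 but ratios below 0 under at least 1 other scaling, so no direction is given for them. The remaining 17 were higher in replicate 1 under all 4, though Pgam1 and Vhl only barely. With edgeR factors their log2 ratios were 0.0013 for Pgam1 and 0.0089 for Vhl, so no direction is read from these genes. By CPM with counting intervals at 95%, Eno3 stood at 0.583 of its replicate 2 level (0.560 to 0.607), Pgam2 at 0.691 (0.652 to 0.731), Egln3 at 0.728 (0.650 to 0.816) and Epas1 at 0.764 (0.703 to 0.830). At the other end Slc2a3 stood at 1.31 (1.23 to 1.40). These intervals exclude 1, while those of Aldoc (0.828 to 1.04), Eno2 (0.861 to 1.14) and Vhl (0.998 to 1.12) include it. All cover counting error only, not the spread between embryos.

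Members known from muscle did not all differ in 1 direction. Eno3, Pgam2, Pfkm and Aldoa were lower in replicate 1 under all 4 scalings, and the M1 form of Pkm had lower TPM there. Slc16a3, with a log2 ratio of 0.27, was higher in replicate 1 under all 4, and Hk2, with 0.16 in TPM, changed sign with the scaling. Of the 10 skeletal muscle markers, 8 were lower in replicate 1, against 19.1% of all genes tested. The markers had a median log2 ratio of -0.40 and sums of 6340 TPM in replicate 1 and 8401 in replicate 2. The highest was the skeletal actin Acta1, with 1743 TPM in replicate 1 and 2448 in replicate 2, followed by the cardiac actin Actc1, with 1732 TPM in replicate 1 and 1930 in replicate 2, and the myosin light chain Myl1, with 952 TPM in replicate 1 and 1328 in replicate 2. Ckm, the muscle creatine kinase, had 218 TPM in replicate 1 and 430 in replicate 2, while Myog and the lowest marker, myoglobin (Mb, 9.96 TPM in replicate 1 and 8.92 in replicate 2), had slightly higher TPM in replicate 1. Pygm, the muscle glycogen phosphorylase, had 40.0 TPM in replicate 1 and 64.3 in replicate 2. In its list, glycogen metabolism, 4 of the 10 genes with a mean of 5 TPM or more were lower in replicate 1, against that 19.1%. Other markers differed too: 5 chondrocyte markers summed to 759 TPM in replicate 1 and 438 in replicate 2, 5 osteoblast markers to 3808 TPM in replicate 1 and 4936 in replicate 2, and 5 red cell markers to 10920 TPM in replicate 1 and 13345 in replicate 2. Matn1, a cartilage matrix gene, was the only gene of all lists past 2-fold, with 104 TPM in replicate 1 and 39.3 in replicate 2. Of all genes tested, 0.714% were past 2-fold. Markers of neurons, glia, epithelium, endothelium and macrophages had median log2 ratios between 0.03 and 0.22. The part of these cell types in the members' ratios was not tested.

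**Figure D4:**
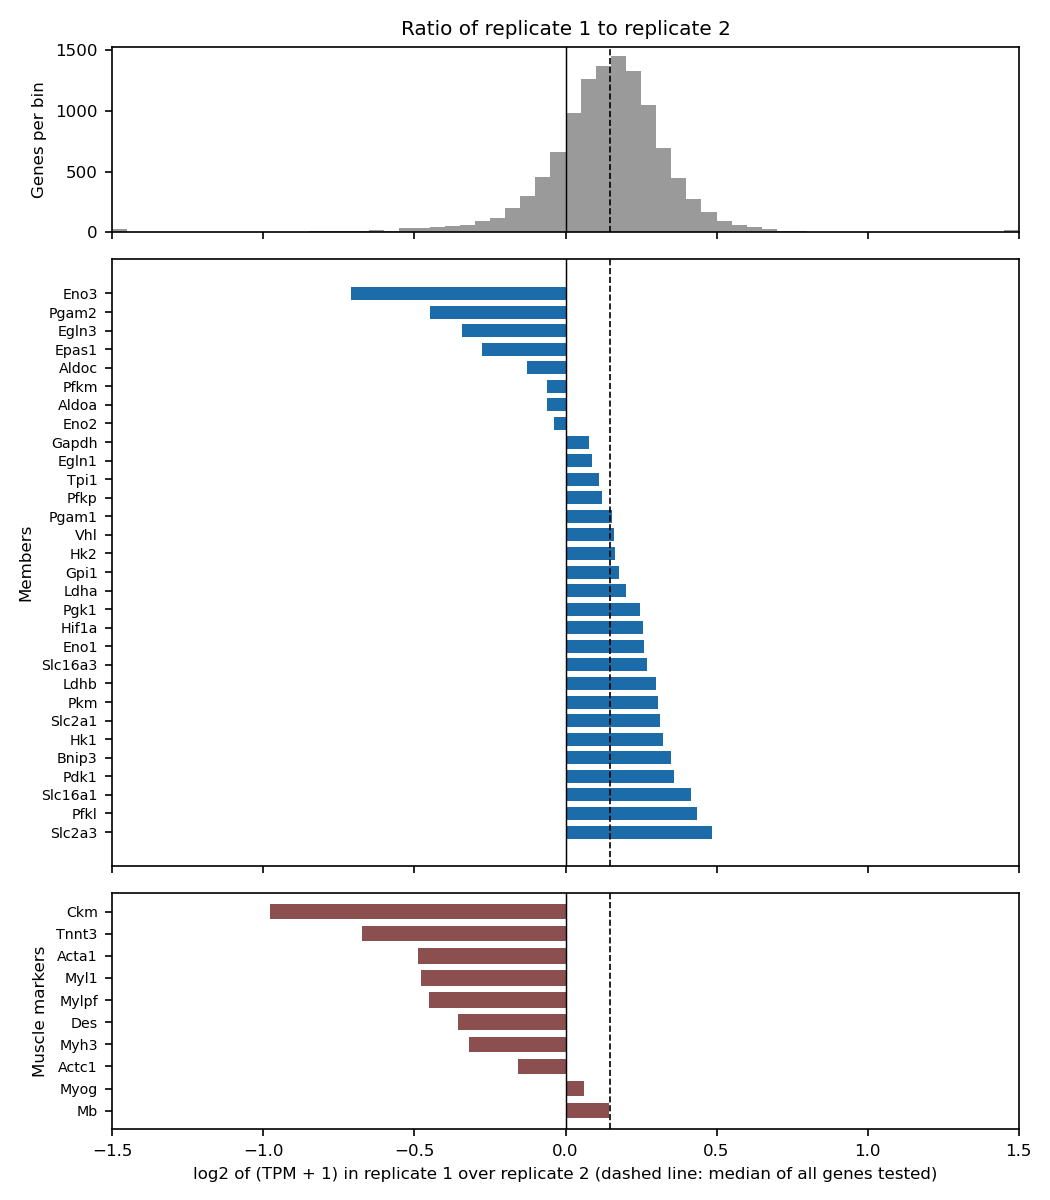
Log2 ratio of TPM + 1 in replicate 1 over replicate 2, for all genes with a mean of 5 TPM or more (top, genes per bin of 0.05, with values beyond the axis in the end bins), for the 30 members tested (middle) and for 10 skeletal muscle markers (bottom); the dashed line is the median of all genes tested, 0.15. Eno3, at -0.71, and Pgam2, at -0.45, lie among the muscle markers, whose median is -0.40.

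**Figure D5:**
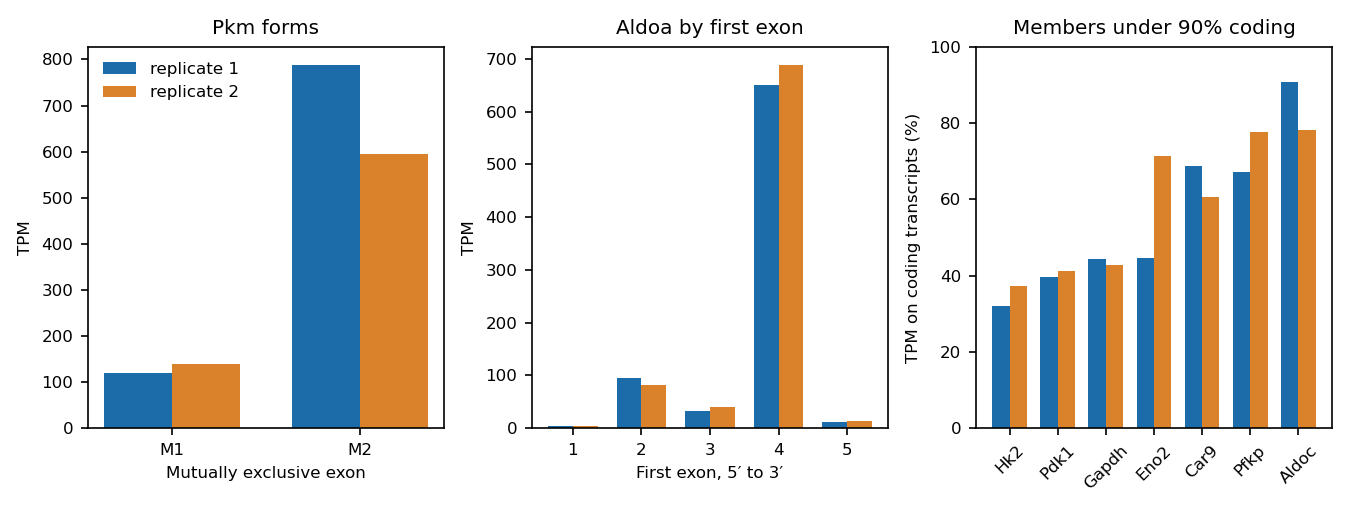
TPM of the M1 and M2 forms of Pkm (left), TPM of Aldoa transcripts by class of first exon (middle) and the percent of TPM on coding transcripts for the 7 members under 90% on average (right), each in replicate 1 (left bar) and replicate 2 (right bar). M2 stood at 788 TPM in replicate 1 and 594 in replicate 2, class 4 took over 80% of Aldoa, and Hk2, Pdk1 and Gapdh were under 50% coding in both libraries.

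Over coding transcripts alone, 25 of the 31 mean levels stayed within the SD of the 2 libraries and 6 moved beyond it. Of the 31 genes 24 had 90% or more of their TPM on coding transcripts in both libraries, and 4 (Hk2, Gapdh, Pdk1 and Eno2) had under 50% in at least 1. Aldoc had 90.8% in replicate 1 and 78.3% in replicate 2. The same share over all genes was not computed. Near-copies at 90% identity or more were found for 10 of the 31 genes, 191 copies in all, of which 185 are annotated as pseudogenes and 51 had 10 counts or more in either library. Apart from Gapdh, Pgk1, Pgam1 and Eno1, whose copies took 2.05% of the combined counts in replicate 1 and 1.83% in replicate 2, copies took under 1% of the combined counts. Pfkp, Car9 and Gpi1 share bases with overlapping or antisense genes and are uncertain to that extent.

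Genes of neighbouring pathways were expressed as well. Of all protein-coding genes, 63.9% reached 1 TPM in both libraries. In glycogen metabolism 10 of 11 genes reached 1 TPM in both libraries, led by Ugp2, which makes the glucosyl donor, with 96.0 TPM in replicate 1 and 97.1 in replicate 2. The lysosomal glucosidase Gaa (72.5 TPM in replicate 1 and 62.6 in replicate 2) and the brain phosphorylase Pygb (59.8 TPM in replicate 1 and 47.8 in replicate 2) came next, and Phkg1, the muscle subunit of phosphorylase kinase, stayed under 0.4 TPM in both. Gys1 and Gbe1 stand in this list and among the hypoxia genes. All 7 genes of the pentose phosphate pathway were at 1 TPM or more in both libraries. Its highest were Pgls, the lactonase, with 198 TPM in replicate 1 and 182 in replicate 2, and Taldo1, the transaldolase, with 193 TPM in replicate 1 and 180 in replicate 2; Tkt, the transketolase, had 51.8 TPM in replicate 1 and 40.3 in replicate 2, and Rpia, the ribose phosphate isomerase, had 2.40 TPM in replicate 1 and 2.54 in replicate 2. In none of the 8 pathway lists did a gene with a mean of 5 TPM or more differ by 2-fold or more. Of all genes tested only 0.714% did (82 of 11482), so this absence says little about these pathways. The median log2 ratios of these lists lay between 0.00 (pyruvate dehydrogenase) and 0.20 (transport), beside 0.15 for all genes tested.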

How the data were processed

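Gene and transcript tables of 2 libraries of mouse embryonic facial prominence were read as deposited. The companion texts name the build mm10 and annotation GENCODE M4. Aligner, quantifier version and use of strand were not given in the sources used here. The authors estimated expected counts for each gene and transcript, per the file headers. The authors' TPM values divide these by effective length and have 1 fixed sum per library; FPKM values were also deposited. The authors' percent values give each transcript's part of its gene. Of the posterior bounds and SDs also deposited, only the bounds of the Pkm forms, Aldoa-203, Aldoa-210 and Car9 are given.

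Symbols, biotypes and exons were taken from GENCODE M21 (GRCm38) through Ensembl identifiers. The members and lists were chosen with earlier results of these data known. All 31 members are named; in each list the rule names the 3 highest genes, the lowest in lists of 6 or more, and any past 2-fold at a mean of 5 TPM. Marker lists other than skeletal muscle depart from this rule and are given mainly as sums and counts. Values of 2 list genes are not reported here. Other list genes were named after their values were seen. Ratios used log2(TPM + 1), which understates low genes. Intervals are exact binomial at 95% on rounded expected counts. Near-copies (BLAST 2.17.0) had the same orientation, 90% identity over 200 bases and 50% of the copy covered; the last limit was set after seeing the data. The 2-fold rule and intervals were checked on simulated data with counting noise alone. That setting had no difference in depth and no spread between embryos, so the check does not cover these. Python 3.11.15, pandas 2.3.3 and scipy 1.17.1 were used. Rounded expected counts gave the scaling factors of edgeR 4.0.16 and DESeq2 1.42.0, which served nothing else.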

Additional observations from a re-analysis of the deposited data

How the results depend on the processing

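No paired analysis was possible because the 2 libraries form 1 group. Depth limits Car9 and the near-silent isoenzymes; levels of short non-coding transcripts rest on few bases. The count of members at 1 TPM in both libraries was 30 under every alternative tried, and no member tested was past 2-fold under any; the untested Car9 reached a log2 ratio of 1.22 with a pseudocount of 0.1. The median member level was 47.8 as FPKM. By expected counts, which favour long transcripts, shares were 72.1% for Slc2a1, 76.4% for Hk1, 56.6% for Pfkl, 97.6% for Aldoa, 86.3% for Pgam1, 90.02% for Ldha, 33.3% for Slc16a3 and 85.7% for the leading Aldoa first exon. Over coding transcripts alone, added after seeing the data for shares of steps, they were 83.7% for Hk1, 98.2% for Aldoa and 83.9% for that first exon. The median log2 ratio of the members was 0.018 with TMM factors, 0.0197 with DESeq2 size factors and 0.0231 after centring, where the median of all genes is 0.00. Near-copies numbered 75 at 95% identity. With ACGTG as the only core searched, 15 of 29 genes held a match, or 51.7%. That compares with 18.5% of all genes with a window and 24.5% of expressed protein-coding genes. With 1 library left out each value is that of the other library, always within the SD of the 2, which says nothing about stability.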
